A study of Zea mays with 24 samples.

Results

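The genes SRP (Zm00001d051139), SCL33 (Zm00001d022243) and SPFcc1-like (Zm00001d048415) were followed through their alternative splicing (AS) events in maize leaf. All events that the deposited tables list for these 3 genes were taken, which gave 20 of the 31439 events and 3 of the 9725 genes in the tables. SRP had 2 events, SCL33 had 3 and SPFcc1-like had 15. Of the 20 events, 19 were listed at V4, 19 at V5 and 18 at both stages. The genes were selected on measured values of these libraries, namely the differences of inclusion between the higher temperatures and 31°C, so the values across temperatures are a description without tests. Within a stage, each higher temperature is set beside the same 31°C libraries.

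Leaves of the maize inbred line W22 were sampled at stage V5 (27 days after germination, DAG) and at stage V4 (20 DAG), a stage being the number of leaves with a visible collar. Plants were moved when 7 days old into growth chambers with a daily temperature cycle that peaked at 1 of 4 maximum daily temperatures (MDTs). The baseline MDT was 31°C, and the higher ones were 33°C, 35°C and 37°C. Each of the 8 combinations of stage and MDT had 3 libraries of poly(A) RNA, each from a different plant, made from the blade at the middle of the newest fully expanded leaf, which is a mixture of cell types. Each MDT was run in duplicate chambers that the labels do not assign to libraries, and V5 leaves were sampled on a later day than V4 leaves, so the stage cannot be told apart from the day of sampling.

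Splicing regulators bind sites in exons and introns and help the spliceosome to choose splice sites. Serine/arginine-rich (SR) proteins are a large family of such regulators in plants, and many SR genes are known to be alternatively spliced themselves, often in response to heat or other stress. SCL33 belongs to the SCL subfamily of SR proteins, a plant subfamily related to the SC35 splicing factor. The study describes SRP as an mRNP protein gene, that is, a gene for a protein that associates with mRNA, and lists SPFcc1-like among the splicing regulators. These names come from the study, since none of the gene identifiers of the tables (0 matched) was found in the RefSeq table at hand.

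Each event of a library comes with 2 read counts, 1 for the inclusion and 1 for the skipping isoform. The inclusion level ψ is the share of inclusion once both counts have been corrected for the length over which such reads can arise. In an exon skipping (ES) event a high ψ means that the exon is kept, and in an intron retention (IR) event a high ψ means that the intron is kept. In alternative 3′ or 5′ splice site events (A3SS, A5SS) a high ψ means that the longer exon is used. Reads summed over all events ranged from 2662780 to 3378578 per V5 library and from 1667908 to 2818842 per V4 library. Among the 24 pairs of libraries within groups, the reads per event differed by a chi-square of 1.82 to 5.18 per degree of freedom, more than counting alone gives, so no library was treated as a copy of another.

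The SRP exon of 47 bases on chromosome 4 (145547764 to 145547810, minus strand, B73 RefGen_V4) was kept less often at each higher MDT than at 31°C, at both stages. At V5, ψ was 6.1%, 9.2% and 8.3% at 31°C, 1.6%, 1.9% and 0.9% at 33°C, 1.0%, 1.1% and 0.7% at 35°C and 1.3%, 1.6% and 2.2% at 37°C. At V4, ψ was 26.6%, 18.8% and 20.1% at 31°C, 11.8%, 7.9% and 9.3% at 33°C, 1.7%, 3.9% and 4.2% at 35°C and 4.2%, 2.3% and 2.0% at 37°C. The libraries of every higher MDT lay below all 31°C libraries of their stage. The order of the means was 31°C, 33°C, then 35°C and 37°C overlapping at V4, whereas at V5 the libraries at 33°C overlapped those at 35°C and at 37°C. The exon length is not a multiple of 3.

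The reads of the 2 SRP isoforms tell which of them moved. Isoform abundance was expressed in RPM, reads per 1000000 clean reads of the library, with inclusion reads divided by the length ratio. The skipping isoform stood at 5.43, 5.60 and 5.52 RPM at V5 31°C, 12.8, 14.1 and 13.8 at 33°C, 19.9, 23.5 and 22.4 at 35°C and 18.2, 17.3 and 16.7 at 37°C. At V4 it stood at 2.75, 3.08 and 3.17 at 31°C, 3.43, 4.40 and 4.09 at 33°C, 11.7, 10.8 and 10.8 at 35°C and 10.8, 11.3 and 11.3 at 37°C. The isoform without the exon was thus 3.97 ± 0.34 times as abundant at 35°C as at 31°C at V5 and 3.69 ± 0.32 times at V4 (SD carried over from the libraries, n = 3 each). Scaled by the reads summed over all events, these folds were 3.72 and 2.92, and with TMM scaling 3.89 and 3.45.

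The isoform with the SRP exon went the other way over the same temperatures. At V5 it averaged 0.475 ± 0.109 RPM at 31°C, then 0.200 ± 0.069 at 33°C, 0.207 ± 0.061 at 35°C and lastly 0.295 ± 0.073 at 37°C (SD, n = 3 each). At V4 it averaged 0.836 ± 0.144, 0.419 ± 0.042, 0.368 ± 0.147 and 0.321 ± 0.130 at the same MDTs (SD, n = 3 each). The libraries at the higher MDTs were all below those at 31°C, except at V5 37°C, where they overlapped. Both isoforms together were 3.69 ± 0.34 times as abundant at V5 35°C as at V5 31°C and 2.98 ± 0.13 times at V4 35°C as at V4 31°C. In a bulk leaf sample, fewer cells that express a gene and less RNA per cell cannot be told apart.

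The second SRP event was an intron of 126 bases (145547913 to 145548038) that lies inside the stretch removed when the 47-base exon is skipped. At V5 its ψ was 85.9%, 90.0% and 89.8% at 31°C, 59.1%, 75.8% and 73.9% at 33°C, 94.9% and 98.6% in the 2 libraries with a value at 35°C, and 85.8%, 96.8% and 90.6% at 37°C. At V4 its ψ was 70.3%, 68.7% and 68.8% at 31°C, 59.8%, 74.0% and 60.6% at 33°C, 72.3%, 73.5% and 91.7% at 35°C and 96.4%, 83.4% and 89.0% at 37°C. The V4 libraries at 35°C and 37°C were all above those at 31°C, and the V5 libraries at 33°C were all below those at 31°C. These levels rest on few skipping reads, between 1 and 24 per library.

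**Figure D1:**
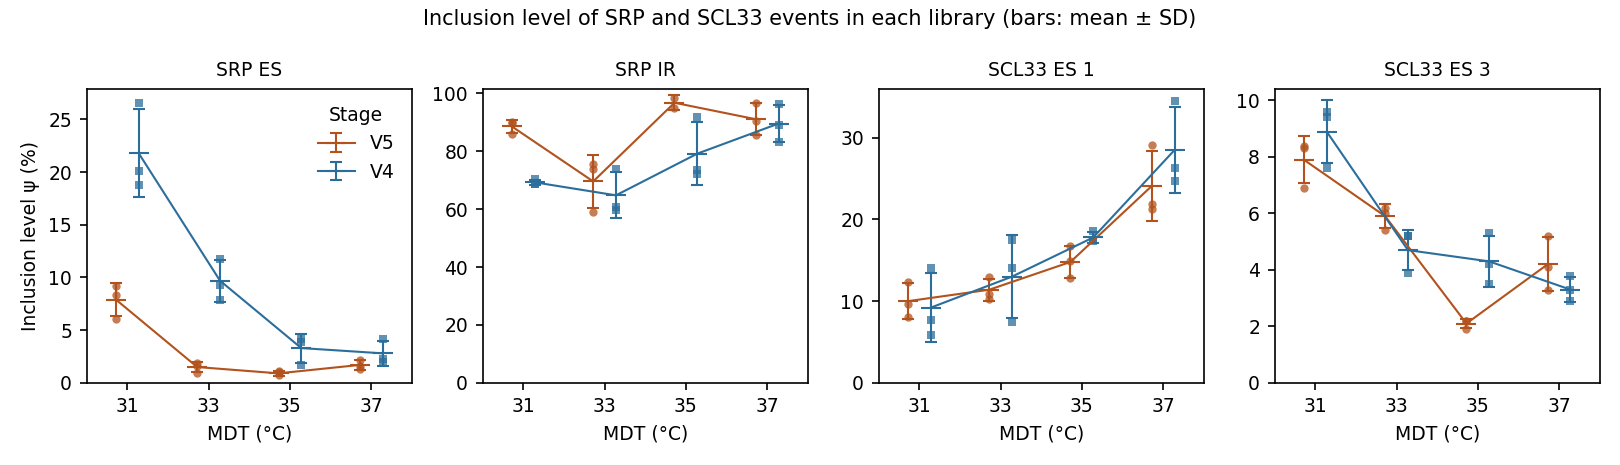
Inclusion level ψ in percent against MDT in °C for 4 events of SRP and SCL33, with V5 as circles on the left and V4 as squares on the right of each MDT. Points are libraries, horizontal bars are means and error bars are SD. The SRP exon lies at 0.7% to 2.2% in all V5 libraries from 33°C upward, against 1.7% to 11.8% in the V4 libraries at those MDTs, and SCL33 ES 1 is highest at 37°C at both stages.

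SCL33 has 3 ES events on chromosome 7, plus strand, and its first exon of interest moved in the opposite direction to the SRP exon. This exon (ES 1, 105 bases, 173493102 to 173493206) was kept more often as the MDT went up. At V5, ψ was 12.4%, 9.6% and 8.1% at 31°C, 12.9%, 10.3% and 10.9% at 33°C, 16.8%, 14.9% and 12.8% at 35°C and 21.9%, 29.1% and 21.3% at 37°C. At V4, ψ was 14.0%, 7.7% and 5.9% at 31°C, 17.5%, 14.1% and 7.5% at 33°C, 17.4%, 17.5% and 18.6% at 35°C and 26.3%, 24.7% and 34.5% at 37°C. The 37°C libraries were above every library of a lower MDT of their stage. The 33°C libraries overlapped those at 31°C and those at 35°C at both stages, so these neighbours in the order were not separated by their spread.

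Between 31°C and 37°C the inclusion isoform of SCL33 ES 1 differed by a larger factor than the skipping isoform at both stages. It averaged 0.179 ± 0.050 RPM at V5 31°C, 0.502 ± 0.039 at 33°C, 0.838 ± 0.084 at 35°C and finally 1.06 ± 0.08 at 37°C (SD, n = 3 each). At V4 it averaged 0.183 ± 0.038, 0.326 ± 0.118, 0.816 ± 0.039 and 1.15 ± 0.10 at the same MDTs. The isoform with the exon was thus 5.93 ± 1.71 times as abundant at V5 37°C as at V5 31°C and 6.26 ± 1.41 times at V4 37°C as at V4 31°C. Scaled by the reads summed over all events, these folds were 6.49 and 5.14, and with TMM scaling 5.68 and 5.57. The isoform without the exon was highest at 35°C, at 4.83 ± 0.30 RPM at V5 and 3.76 ± 0.31 at V4, and was 2.13 ± 0.45 times as abundant at V5 37°C as at V5 31°C and 1.5 ± 0.48 times at V4 37°C as at V4 31°C.

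A further SCL33 exon (ES 3, 188 bases, 173494317 to 173494504) is a rarely kept exon whose ψ was lower at every higher MDT. At V5, ψ was 6.9%, 8.3% and 8.4% at 31°C, 6.2%, 5.4% and 6.0% at 33°C, 1.9%, 2.2% and 2.2% at 35°C and 5.2%, 4.1% and 3.3% at 37°C. At V4, ψ was 9.4%, 7.6% and 9.6% at 31°C, 5.2%, 3.9% and 5.2% at 33°C, 5.3%, 4.2% and 3.5% at 35°C and 3.8%, 3.3% and 2.9% at 37°C. No library of a higher MDT reached the 31°C libraries of its stage, and at V5 the 35°C libraries were below those of all other MDTs. The isoform without this exon was 3.06 ± 0.26 times as abundant at V5 35°C as at V5 31°C and 2.02 ± 0.15 times at V4 35°C as at V4 31°C. The isoform with this exon did not fall at every MDT. Against 31°C it was at 1.66 ± 0.22, 0.762 ± 0.098 and 1.26 ± 0.31 times at V5 33°C, 35°C and 37°C. At V4 it was at 0.627 ± 0.129, 0.936 ± 0.235 and 0.674 ± 0.119 times. Libraries overlapped those at 31°C at V5 37°C and V4 35°C. Of the 2 exons, that of ES 1 has a length that is a multiple of 3 and that of ES 3 does not.

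The third SCL33 event (ES 2, 162 bases, 173493339 to 173493500) had a value in 3 V5 libraries alone, 1 at 33°C and 2 at 35°C. In each of these ψ was 99.8% with 1 skipping read, and the inclusion reads were 1005, 1257 and 1252. This exon is the downstream neighbour of the ES 1 exon and is kept in nearly all reads there.

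SPFcc1-like, on the minus strand of chromosome 9, has most of its events in 1 stretch between an exon at 155890330 to 155890549 and an exon at 155891205 to 155891269. The intron between them is 655 bases long (155890550 to 155891204) and is the subject of IR 2. Inside it lie the 3 distinct exons of 4 ES events, among them the lead exon of ES 4 (53 bases, 155890848 to 155890900) and the exon of ES 3 with the same end (87 bases, 155890814 to 155890900). ES 3, ES 4, IR 2 and A3SS 2 count the same skipping reads, those of the junction that removes the whole stretch, in every library with a value. Their ψ values are therefore not independent, and reads within the exons inside the stretch may also be counted for IR 2.

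The lead exon ES 4 was kept least at V5 35°C. At V5, ψ was 39.4%, 45.9% and 31.4% at 31°C, 20.4%, 29.0% and 33.1% at 33°C, 11.5%, 12.7% and 6.5% at 35°C and 23.3%, 18.1% and 23.4% at 37°C. At V4, ψ was 35.3%, 29.4% and 30.4% at 31°C, 31.9%, 32.3% and 50.5% at 33°C, 26.9%, 33.4% and 33.3% at 35°C and 22.5%, 30.1% and 13.1% at 37°C. The V5 35°C libraries were below all other V5 libraries. At V4 the libraries of each higher MDT overlapped those at 31°C. Each value rests on 18 to 112 reads.

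The intron of IR 2 also had its lowest mean at V5 35°C, and the V4 levels lay above the V5 levels at 31°C, 33°C and 35°C. At V5, ψ was 45.8%, 41.9% and 35.5% at 31°C, 24.7%, 21.3% and 23.7% at 33°C, 10.4%, 22% and 10.6% at 35°C and 28.9%, 34.2% and 37.0% at 37°C. At V4, ψ was 52.7%, 50.4% and 57.4% at 31°C, 66.7%, 59.5% and 64.4% at 33°C, 36.2%, 48.7% and 45.7% at 35°C and 35.7%, 46.2% and 35.7% at 37°C. At V5 the libraries at 33°C and 35°C were below those at 31°C, and those at 37°C overlapped them. At V4 the 33°C libraries were above and the 35°C and 37°C libraries below those at 31°C.

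The shared skipping isoform of SPFcc1-like ranged from 0.530 to 1.88 RPM over the V5 libraries and from 0.247 to 0.841 RPM over the V4 libraries. It stood at 0.530, 0.577 and 0.789 RPM at V5 31°C, 1.37, 1.16 and 1.43 at 33°C, 1.88, 1.28 and 1.40 at 35°C and 1.04, 0.854 and 0.623 at 37°C. At V4 it stood at 0.486, 0.542 and 0.502 at 31°C, 0.247, 0.420 and 0.300 at 33°C, 0.789, 0.549 and 0.662 at 35°C and 0.721, 0.523 and 0.841 at 37°C. It was 2.41 ± 0.73 times as abundant at V5 35°C as at V5 31°C and 1.31 ± 0.25 times at V4 35°C as at V4 31°C, and the difference between these folds was not tested. Scaled by the reads summed over all events the V4 fold was 1.04, and with TMM scaling 1.22, with libraries overlapping under both. The V5 fold was 2.26 and 2.36 under these scalings, with libraries apart. The isoform with the ES 4 exon was 0.441 ± 0.206 times as abundant at V5 35°C as at V5 31°C, and the isoform with the retained intron 0.574 ± 0.235 times.

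**Figure D2:**
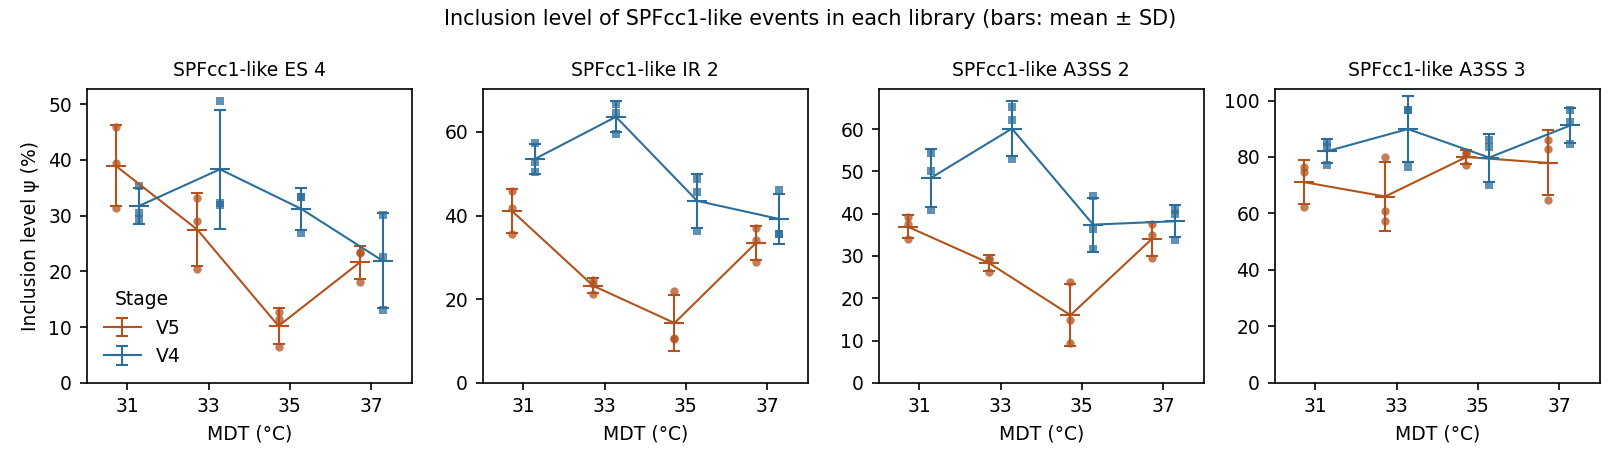
Inclusion level ψ in percent against MDT in °C for 4 SPFcc1-like events, with V5 as circles on the left and V4 as squares on the right of each MDT. Points are libraries, horizontal bars are means and error bars are SD. ES 4, IR 2 and A3SS 2 share their skipping reads and are lowest at V5 35°C, at means of 10.2%, 14.3% and 16.0%.

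A3SS 2 uses an acceptor that adds 39 bases to the downstream exon and followed IR 2, with which it shares reads. Its ψ averaged 36.9% ± 2.66 at V5 31°C, 28.3% ± 1.84 at 33°C, 16.0% ± 7.32 at 35°C and then 34.0% ± 4.03 at 37°C (SD, n = 3 each). At V4 it averaged 48.4% ± 6.90, 60.1% ± 6.47, 37.4% ± 6.37 and 38.2% ± 3.82 at the same MDTs. A3SS 3, which adds 186 bases when the ES 4 exon is its partner, stayed between group means of 66.0% and 91.2%, and its libraries at each higher MDT overlapped those at 31°C except at V5 35°C, where they were higher.

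A3SS 4 adds 276 bases to an exon outside the stretch and had its lowest mean at 35°C at both stages. Its ψ was 19.5%, 22.3% and 13.6% at V5 35°C, against 29.2%, 25.1% and 28.6% at V5 31°C. It was 18.0%, 5.9% and 11.6% at V4 35°C, against 20.2%, 19.3% and 33.6% at V4 31°C. The 35°C libraries were below the 31°C libraries at each stage, with differences of means of -9.2 points at V5 and -12.5 points at V4, and those at 33°C and 37°C overlapped the 31°C libraries.

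The libraries of the other SPFcc1-like events overlapped between 31°C and each higher MDT wherever both groups had 3 values. A3SS 1 kept group means between 88.9% and 96.3%. ES 5, which shares its skipping reads with A3SS 4, had group means between 16.3% and 31.5%. The group means of IR 3 ran from 33.2% to 46.0% with 5 to 50 reads per library, those of ES 2 from 23.3% to 48.3% with 3 to 31 reads, and those of A5SS 2 from 12.8% to 42.2% with 3 to 24 reads. IR 1 had a value in 9 libraries, between 95.1% and 97.8%. ES 3 and A5SS 1 had a value in 1 library of each group, and ES 1 had a value in 5 libraries with at most 3 reads. For ES 3 these single values were 20.4%, 17.2%, 8.5% and 10.0% at V5 and 22.3%, 31.5%, 21.9% and 21.3% at V4, from 31°C to 37°C. A5SS 3 had reads in 1 library, at V4 33°C, and no ψ.

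**Figure D3:**
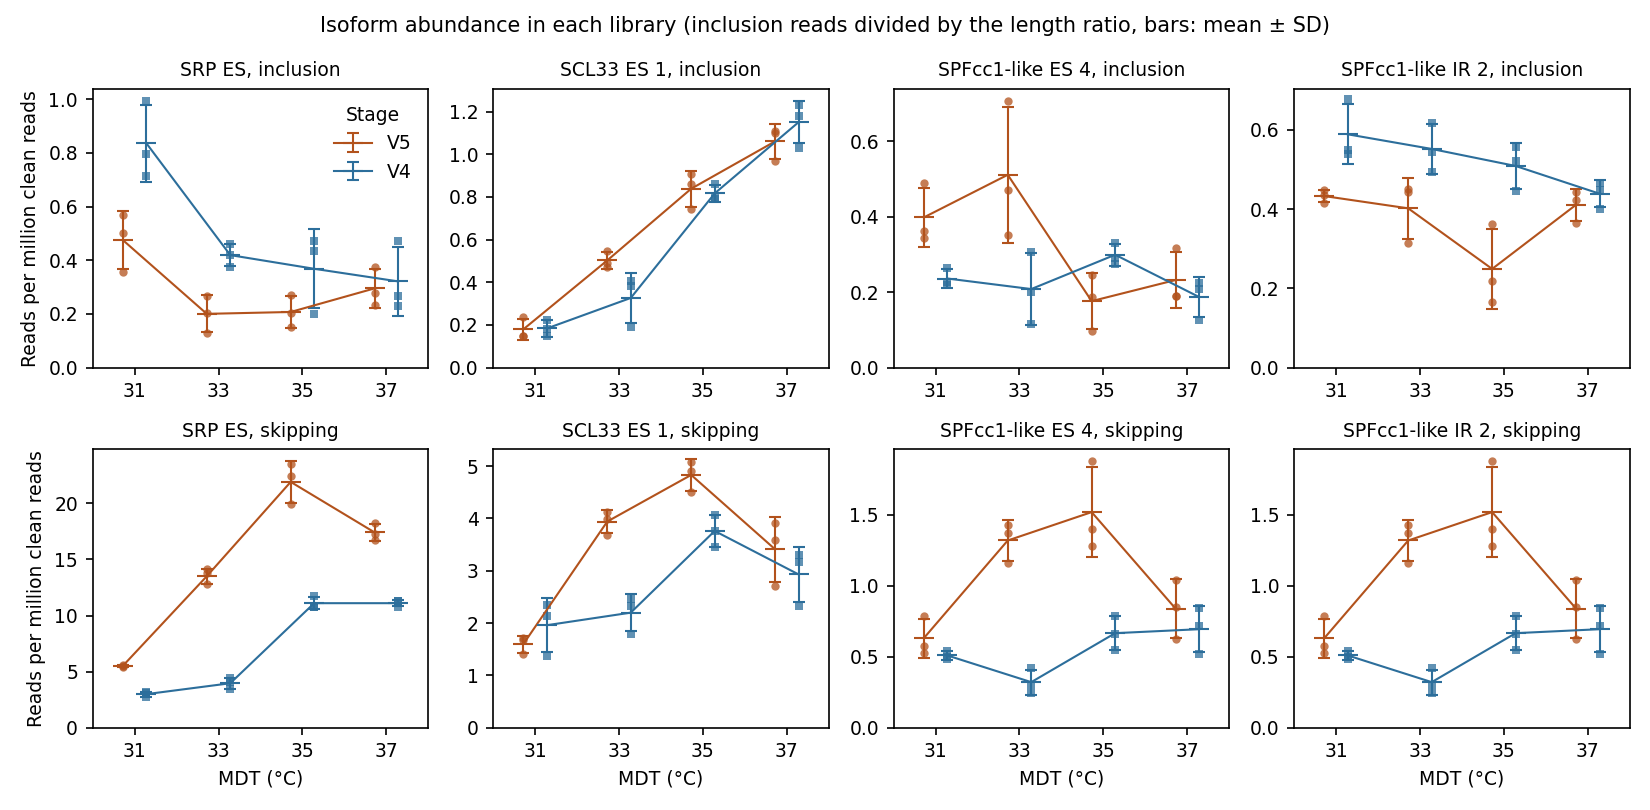
Isoform abundance in RPM (reads per 1000000 clean reads) against MDT in °C, inclusion isoform in the upper row and skipping isoform in the lower row, for SRP ES, SCL33 ES 1, SPFcc1-like ES 4 and SPFcc1-like IR 2. V5 is drawn as circles on the left and V4 as squares on the right, with means and SD. The SRP skipping isoform reaches 19.9 to 23.5 at V5 35°C, against 5.43 to 5.60 at V5 31°C, and the 2 SPFcc1-like panels of the lower row show the same reads.

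A differential AS call was made where the false discovery rate (FDR) of a quasi-binomial test of inclusion and skipping reads was at most 1% and the difference of mean ψ was above 5 percentage points. The comparison of V5 with V4 at each MDT was not itself used to choose the genes and was tested. It uses the same libraries as the comparisons across MDTs on which the genes were chosen. These tests are therefore not independent of that choice, and the shares over all events are not a neutral measure for these genes. Of the 20 events, 14 could be tested at 1 MDT or more and 13 at all MDTs, whereas 6 had too few reads or values. Among these 14, calls were made for 3 events, SRP ES, SPFcc1-like ES 4 and SPFcc1-like IR 2, each with a lower ψ at V5. Called events were 1 of 14 at 31°C, 2 of 14 at 33°C, 2 of 14 at 35°C and 0 of 13 at 37°C, and the background over all tested events was 0.843%, 2.48%, 3.08% and 1.08%. The median difference of V5 minus V4 over the tested events of the 3 genes was -0.4, -4.9, -2.2 and -1.1 points at the 4 MDTs, and over all tested events it was 0, 0, -0.1 and -0.2 points. An unadjusted p under 0.05 was found for 4, 5, 8 and 1 of them, where 14.2%, 20.4%, 21.4% and 15% of all tested events had one. The events that share skipping reads are not separate pieces of evidence.

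The SRP exon was kept less at V5 than at V4 at the lower MDTs. At 31°C its ψ was 7.9% ± 1.59 at V5 and 21.8% ± 4.18 at V4 (SD, n = 3 each), a difference of -14.0 points with an FDR of 0.00526 by the quasi-binomial test moderated with limma. At 33°C it was 1.5% ± 0.51 at V5 and 9.7% ± 2.00 at V4, a difference of -8.2 points with an FDR of 0.000608. At both MDTs all 3 V5 libraries were below all V4 libraries. At 35°C it was 0.9% ± 0.21 at V5 and 3.3% ± 1.37 at V4, and at 37°C 1.7% ± 0.46 at V5 and 2.8% ± 1.19 at V4, with FDRs of 0.0172 and 0.389, so neither passed. The call at 31°C was lost without V5 replicate 1 (FDR 0.0121), V5 replicate 2 (0.0132) or V4 replicate 1 (0.0203). For V4 31°C the counts of inclusion in replicates 2 and 3 were derived from ψ, and limma on log2 ratios gave adjusted p-values of 0.215 at 31°C and 0.0197 at 33°C, which ended both calls.

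The skipping isoform of SRP was more abundant at V5 than at V4 at every MDT. By clean reads it was 1.84 ± 0.14 times as abundant at V5 as at V4 at 31°C, 3.41 ± 0.46 times at 33°C, 1.98 ± 0.19 times at 35°C and 1.57 ± 0.08 times at 37°C. Read counts summed over all listed events came to 6.53% of the number of clean reads at V5 and 4.99% at V4. A read can be counted in several events, and 28092 events were listed at V5 and 22077 at V4. The part of these sums in the folds was not tested. Scaled by event reads the same folds were 1.19, 2.56, 1.52 and 1.37, and with TMM scaling 1.44, 2.26, 1.62 and 1.31, with all V5 libraries above all V4 libraries under each scaling. The isoform with the exon was 0.568 ± 0.163 times as abundant at V5 as at V4 at 31°C and 0.478 ± 0.171 times at 33°C, and V5 libraries overlapped V4 libraries at 35°C and 37°C.

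The SRP intron did not pass at any MDT. At 31°C its ψ was 88.6% ± 2.31 at V5 and 69.3% ± 0.90 at V4 (SD, n = 3 each), a difference of 19.3 points with libraries apart and an FDR of 0.019. At 35°C it was 96.8% ± 2.62 at V5 (n = 2) and 79.2% ± 10.87 at V4 (n = 3), a difference of 17.6 points with an FDR of 0.0325 from the quasi-binomial fit, in which 1 V5 library had no value, and without V4 replicate 3 it was 23.9 points with an FDR of 0.00329. At 33°C and 37°C the differences were 4.8 and 1.5 points, and the libraries overlapped.

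For SPFcc1-like, the intron of IR 2 was retained less at V5 than at V4 at the middle temperatures. At 33°C its ψ was 23.2% ± 1.75 at V5 and 63.6% ± 3.67 at V4 (SD, n = 3 each), a difference of -40.3 points with an FDR of 4.81e-05 by the quasi-binomial test moderated with limma. At 35°C it was 14.3% ± 6.64 at V5 and 43.5% ± 6.53 at V4, a difference of -29.2 points with an FDR of 0.00133. At 31°C the difference was -12.4 points with an FDR of 0.131, and at 37°C it was -5.8 points with an FDR of 0.452. The V5 libraries were below the V4 libraries at 31°C, 33°C and 35°C and overlapped them at 37°C. Limma on log2 ratios gave adjusted p-values of 0.0204 at 33°C and 0.0318 at 35°C, which ended both calls.

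Both isoforms of this intron differed between the stages. At 33°C the shared skipping isoform was 4.09 ± 1.21 times as abundant by clean reads at V5 as at V4, and 3.05 times by event reads. The isoform with the intron was 0.728 ± 0.161 times as abundant at V5 as at V4 by clean reads, and 0.548 times by event reads. At 35°C the folds by clean reads were 2.28 ± 0.63 for the skipping isoform and 0.489 ± 0.206 for the isoform with the intron. In these comparisons the libraries of the stages did not overlap.

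The SPFcc1-like exon of ES 4 differed between stages at 35°C, where ψ was 10.2% ± 3.29 at V5 and 31.2% ± 3.72 at V4 (SD, n = 3 each). The difference of -21.0 points had an FDR of 0.00855 by the quasi-binomial test moderated with limma. Leaving out any 1 of the 6 libraries ended the call, with differences of -23.1 to -19.1 points and FDRs of 0.0139 to 0.0276, as did limma on log2 ratios (adjusted p 0.0631). At 31°C, 33°C and 37°C the differences were 7.2, -10.8 and -0.3 points, and the libraries overlapped. A3SS 2, which shares the skipping reads, had differences of -31.8 points at 33°C (FDR 0.0111) and -21.4 points at 35°C (FDR 0.0619), and neither passed. It did pass at 33°C with values in all 3 libraries (FDR 0.00171), with a spread shared by all groups (0.00101), with adjustment over all AS types (0.00459) and by edgeR (0.00545), and at 35°C in the first 2 of these (0.00675 and 0.00223).

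The SCL33 events gave no call between stages. For ES 1 the differences of V5 minus V4 were 0.8, -1.7, -3.0 and -4.4 points from 31°C to 37°C, with FDRs of 0.541 to 0.893 at 31°C, 33°C and 37°C and 0.306 at 35°C. For ES 3 the difference at 35°C was -2.2 points, with ψ at 2.1% ± 0.17 at V5 and 4.3% ± 0.91 at V4 (SD, n = 3 each). Its FDR of 0.00724 in the quasi-binomial fit met the limit, whereas its size did not. At 37°C none of the 13 tested events of the 3 genes was called by the quasi-binomial test, edgeR or limma, and 1, 2 and 1 of them had an unadjusted p under 0.05, where 15% of all tested events had one by the quasi-binomial test. Whether the stage difference itself changed with the MDT was not tested for any event.

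**Figure D4:**
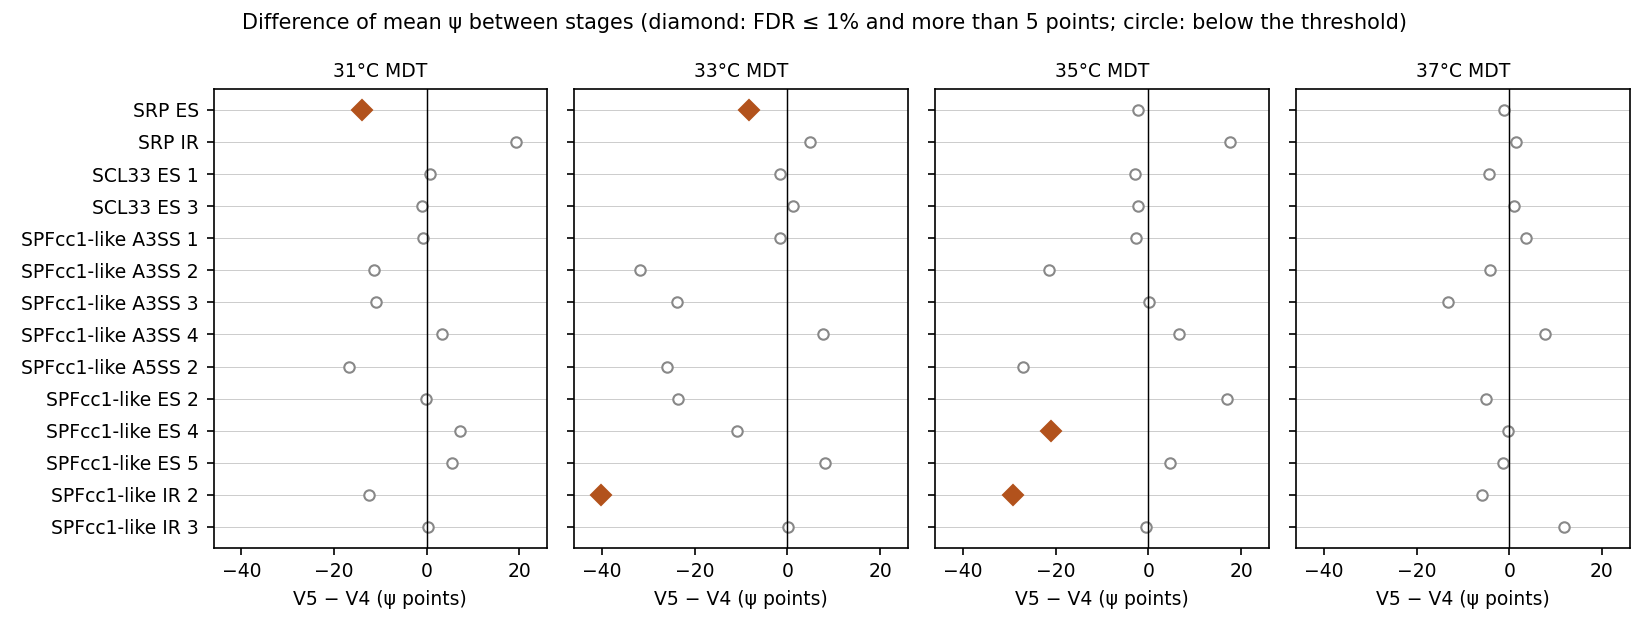
Difference of mean ψ, V5 minus V4, in percentage points (horizontal axis) for the tested events of the 3 genes (rows) at each MDT (panels). Filled diamonds mark an FDR of at most 1% with more than 5 points and open circles mark the rest. The diamonds are SRP ES at 31°C and 33°C, SPFcc1-like IR 2 at 33°C and 35°C and SPFcc1-like ES 4 at 35°C, all to the left of 0.

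The other splicing regulators that the study names with identifiers, SR45a (Zm00001d047847, of the SR45 family) and SR34 (Zm00001d040672, an SR subfamily protein), were tested between stages in the same fits. For SR45a, ψ was called lower at V5 in 3 of 8 tested events at 31°C, 3 of 9 at 33°C, 3 of 12 at 35°C and 3 of 9 at 37°C. For SR34, 0 of 10 events were called at 31°C and at 37°C, 5 of 10 were lower at V5 at 33°C, and 5 were lower and 1 higher at 35°C. Lower ψ at V5 was called in 0.473%, 1.43%, 1.67% and 0.821% of all tested events at the 4 MDTs, and higher ψ in 0.37%, 1.05%, 1.41% and 0.255%. The study picked both genes for their splicing changes across MDTs in these libraries, so they are not a neutral list. The called events of each gene overlap in position and are not separate pieces of evidence.

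Over the 24 libraries, Pearson's r between the ψ of SRP ES and SCL33 ES 1 was -0.44, that between SRP ES and SPFcc1-like ES 4 was 0.46, and that between SRP ES and SPFcc1-like IR 2 was 0.65. For the further SCL33 exon of ES 3, r with SRP ES was 0.74. SPFcc1-like ES 4 and IR 2, which share skipping reads, had an r of 0.71. These are descriptions over libraries that fall into 8 groups.

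Among 1731 events of other genes with ψ in all 24 libraries, the pattern most like that of the SRP exon was an A3SS event of Zm00001d044138 (chromosome 3, long exon 220169407 to 220169635, r = 0.90). Its group means were 10.7%, 7.2%, 6.4% and 1.5% at V5 and 28.4%, 8.2%, 10.2% and 4.2% at V4, from 31°C to 37°C. Its r with the SRP exon was 0.91 within the 12 V4 libraries and 0.67 within the 12 V5 libraries. The most opposite pattern was an IR event of Zm00001d003212 (r = -0.85), with 16.5%, 22.2%, 23.4% and 21.6% at V5 and 8.3%, 12.6%, 20.7% and 23.9% at V4. For SCL33 ES 1 the nearest was an ES event of Zm00001d022272 (chromosome 7, exon 174090833 to 174090934, r = 0.83) with 75.2%, 84.9%, 88.3% and 96.1% at V5 and 71.7%, 84.5%, 92.4% and 96.8% at V4. The most opposite to it was an A5SS event of Zm00001d038306 (r = -0.85).

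For SPFcc1-like ES 4 the nearest event was an exon of Zm00001d045472 (chromosome 9, 23408154 to 23408220, r = 0.76). Its group means were 94.9%, 88.9%, 82.6% and 86.9% at V5 and 94.9%, 91.9%, 92.2% and 88.8% at V4, with the low point at V5 35°C as for ES 4. Within the 12 V4 libraries this r was 0.44, and within the 12 V5 libraries it was 0.87. The most opposite was an IR event of Zm00001d047739 (r = -0.81, and -0.81 within each stage).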

How the data were processed

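Poly(A) RNA of 24 leaf samples was sequenced by the authors, aligned to the B73 genome (RefGen_V4) with HISAT2 2.0.4, and AS events were detected with rMATS. The deposited tables hold raw read counts of both isoforms of each event, and the inclusion level ψ as a fraction computed by the authors from length-adjusted reads. No columns of the authors' own comparisons were used. Columns were assigned to samples by name, and 5 single-sample columns whose names fit no sample were left out. For V4 31°C replicates 2 and 3, counts of inclusion were derived from those of skipping with ψ and the event's length ratio (8811 and 9079 events), and for V4 33°C ψ was computed from the reads. Positions are printed 1-based. Sequences are not printed because no genome of this build was used, and the leaf identity could not be checked against marker genes because the tables hold no gene levels.

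For each event listed at both stages, a quasi-binomial model was fitted to the 6 libraries of an MDT in R 4.3.3. Residual deviance was moderated with squeezeVar of limma 3.58.1 and held at 1 or above. The F test was adjusted by Benjamini-Hochberg within each AS type over all tested events. Tested events had 10 or more reads on average, and both groups had values in 2 or 3 libraries. Alternatives were other read minimums, adjustments and FDR limits, limma on log2 ratios (0.5 added), edgeR 4.0.16, a shared spread, a replicate block and leaving out each library. The test was also tested on simulated data. Isoform abundance used the clean reads per library that the study lists, with sums over events and TMM as alternatives. Python 3.11.15, pandas 2.3.3 and numpy 2.4.6 were used for the tables.

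All events of the 3 genes are described. The lead events are the ES event with most reads for SRP, the ES event at the given exon end for SCL33, and for SPFcc1-like the ES events at the given exon end and the IR event with most reads. The search for like events took those averaging 20 or more reads in each group whose group means spanned 10 points or more. The genes, lists and tests were chosen with earlier results of these data known. Per the labels, the 3 libraries of a group came from different plants, so the tests measure the spread between plants. Reads carry no molecular identifiers.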

Additional observations from a re-analysis of the deposited data

Results flagged for a closer look

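The ψ of SPFcc1-like IR 2 moved in opposite directions at the 2 stages when 33°C was compared with 31°C. At V5 the mean ψ was 23.2% at 33°C and 41.1% at 31°C, a change of -17.8 points, and all 33°C libraries were below the 31°C libraries. At V4 the mean was 63.6% at 33°C and 53.5% at 31°C, a change of 10.1 points, and all 33°C libraries were above the 31°C libraries. The difference between these changes was not tested. The skipping reads behind them were 56 to 67 per library at V5 33°C and 25 to 37 at V5 31°C, and 11 to 17 at V4 33°C and 22 to 23 at V4 31°C. By clean reads the isoform with the intron was 0.938 ± 0.161 times as abundant at 33°C as at 31°C at V4. At V5 it was 0.928 ± 0.18 times, and libraries overlapped at both stages. With TMM scaling the V5 fold was 0.808, with libraries apart. The shared skipping isoform was at 0.632 ± 0.178 times at V4 and 2.08 ± 0.51 at V5, with libraries apart. The V4 libraries of ES 4 and A3SS 2, which share these reads, overlapped between 33°C and 31°C.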

How the results depend on the processing

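The counts of called events of the 3 genes between stages were 1, 2, 2 and 0 from 31°C to 37°C. Limma on log2 ratios called 0 of them at each MDT (3, 5, 7 and 1 with an unadjusted p under 0.05), and over all events it called 0, 2, 11 and 0. At 31°C the count was 2 with values in all 3 libraries and 2 at an FDR of 5%, the added event being the SRP intron. At 33°C it was 3 with values in all 3 libraries, over all AS types, at an FDR of 5%, by edgeR and with a spread shared by all 8 groups, the added event being SPFcc1-like A3SS 2. At 35°C it was 3 with values in all 3 libraries (A3SS 2 added), 3 at an FDR of 5% (SRP intron added) and 4 with the shared spread (both added). Leaving out 1 library gave 0 to 1 at 31°C, 2 at 33°C, 1 to 2 at 35°C and 0 at 37°C. No called difference changed its direction, and changes of direction among differences that were not called were not counted. Of 296 alternative fits of single events, 268 stayed on their side of the threshold, 15 lost and 13 gained a call. These fits covered the events called under some setting, at every MDT, so most had no call to lose. The 15 losses all fell on the 5 differences called in the main fit. All 160 alternative group means of lead events and 1018 of 1080 alternative isoform folds moved by no more than 1 SD of the libraries. Most of these alternatives could not move further. Leaving out 1 of 3 libraries shifts a mean by less than its SD by construction, and the length ratio cancels in a fold. The other 62 folds all moved under scaling by event reads or TMM. The folds therefore depend on the scaling more than 62 of 1080 would imply.

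With the replicate block the counts were 1, 3, 1 and 0. SPFcc1-like ES 4 at 35°C then had an FDR of 0.0282 and A3SS 2 at 33°C one of 0.0066. The labels share replicate numbers between stages, but deviations of same-numbered libraries had correlations of -0.024 to 0.046, and every library correlated best with its own number at 33°C alone, so the numbers were not taken to pair the libraries.

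Over all tested events the calls were 57, 172, 225 and 76. They were 86, 292, 390 and 98 with values in all 3 libraries, 145, 405, 517 and 156 at an FDR of 5%, 81, 288, 364 and 114 with the shared spread and 75, 260, 120 and 73 with the replicate block. Leaving out 1 library gave 28 to 47, 128 to 144, 150 to 205 and 42 to 66. Low skipping reads limit the SRP intron, and ES 2, A5SS 2 and IR 3 of SPFcc1-like rest on few reads in total.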
